A study of Mus musculus with 8 samples.

Results

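The zinc-dependent histone deacetylases Hdac1 to Hdac10 were examined for lactylation of lysine 12 of histone H4 (H4K12la) at their own genes in mouse brain. All 10 listed genes were found by symbol in the RefSeq annotation of GRCm38.p6, among 21887 protein-coding genes. Each gene was taken as its annotated span plus 2 kb on both sides, and every peak that overlapped this stretch by at least 1 base was counted. The series holds 8 CUT&Tag libraries, 2 in each of 4 groups: microglia of 5XFAD mice, microglia of WT mice, total brain cells of 5XFAD mice and total brain cells of WT mice. CUT&Tag cuts and tags DNA with a transposase tethered by an antibody, here one against H4K12la. 5XFAD mice are an amyloid model that carries mutated human transgenes driven by a neuronal promoter. WT mice are wild type. All mice were perfused, their brains were taken without the cerebellum and dissociated, and cells from these suspensions that bound CD11b beads were used as microglia. The sources used here give no age, sex or strain of the mice and no number of animals behind each library, so p-values measure only the spread between these libraries, which may be technical.

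Zinc-dependent deacetylases remove acyl groups from lysines with a zinc ion in the catalytic pocket. The class I enzymes Hdac1, Hdac2, Hdac3 and Hdac8 are mainly nuclear, and Hdac1 to Hdac3 work inside corepressor complexes and have been described as able to remove lactyl groups from histones. The class IIa enzymes Hdac4, Hdac5, Hdac7 and Hdac9 shuttle between nucleus and cytoplasm, bind MEF2 transcription factors and have little deacetylase activity of their own, while the class IIb enzymes Hdac6 and Hdac10 act largely in the cytoplasm. The values below are of the mark at the genes and not of enzyme level or activity.

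The 8 lists held 22300 to 41783 peaks in microglia and 22543 to 32967 peaks in total cells. Peaks were wider in microglia, with a median width of 580 to 735 bp in microglia, against 287 to 366 bp in total cells. Together the peaks of a list covered 15.3 to 36.3 Mb in microglia, against 7.8 to 14.8 Mb in total cells. Read depth is unknown, since the lists hold no counts. The share of genes with a peak was 42.4% to 56.1% in microglia and 44.6% to 51.9% in total cells. Of 18 microglial markers, 15 had a peak in all 4 microglia libraries and 3 in all 4 total cell libraries, and their summed covered length was 32376 to 72765 bp in microglia, against 1889 to 9277 bp in total cells. The markers Aif1, C1qa, C1qb, C1qc and Ptprc had no peak in any total cell library. Of the 8 neuronal markers, 5 had no peak in any library, among them Snap25, Slc17a7, Gad1 and Gad2. Their summed covered length was 441 to 1487 bp in microglia, against 1191 to 3570 bp in total cells, which overlapped. Map2 was covered over 0 to 359 bp in microglia, against 1191 to 2924 bp in total cells. Rbfox3 went the other way, with 441 to 1128 bp in microglia, against 0 to 221 bp in total cells. The 5 oligodendrocyte markers had a summed covered length of 5957 to 16569 bp in microglia, against 319 to 5214 bp in total cells.

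A total of 312 peaks lay at the 10 genes, and they merged into 89 regions across libraries. Hdac9, by far the longest of the genes at 869.5 kb, held 51 of these regions and 65.7% of the peaks, with 55.3% of the combined length. Hdac4 held 20 regions and 15.4% of the peaks, and the other 8 genes held 18 regions together. By position, 78 regions lay inside the gene bodies, 5 overlapped a start listed in RefSeq, 1 lay within 2 kb of such a start, and 5 lay at an annotated end of a gene with no listed start. Of the 89 regions, 32 were found in 1 library, or 36%, against 37.9% of all 73355 regions of the series.

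Hdac1, Hdac2, Hdac4, Hdac9 and Hdac10 had a peak in all 8 libraries, 5 of 10 genes, against 26.7% of all genes. Each of the other 5 had a peak in some libraries, and none of the 10 lacked peaks altogether, against 34.0% of all genes. Hdac5 had a peak in each of the 4 microglia libraries and none in total cells, a pattern held by 1.2% of all genes. The reverse pattern was found at none of the 10 and at 0.982% of all genes. In such bulk libraries, a different mix of cells and a different level of the mark per cell cannot be told apart.

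**Figure D1:**
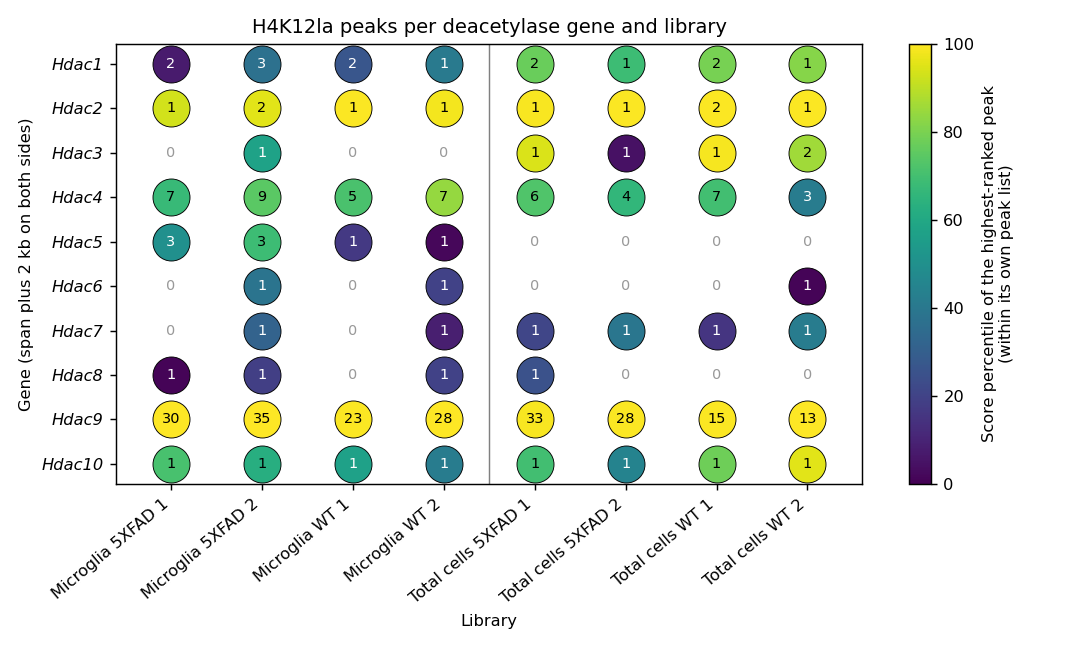
Number of H4K12la peaks overlapping each deacetylase gene plus 2 kb on both sides (rows, Hdac1 to Hdac10) in each library (columns, microglia left of total cells and 5XFAD left of WT), with the count written in each cell. The colour is the score percentile of the highest-ranked peak within its own list. Hdac9 held 13 to 35 peaks per library, Hdac10 held 1 in every library, and Hdac5 held peaks in the microglia libraries only.

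Among the class I genes, Hdac2 had the strongest peak for its list. Hdac2, a catalytic subunit of the SIN3, NuRD and CoREST complexes, lies at chr10:36974297-37001889. Its peaks merged into 1 region over the start, chr10:36973852-36975522, present in all 8 libraries. The score percentile of its best peak, the rank among all peaks of its own list, was 93.3 and 95.5 in 5XFAD microglia, 99.4 and 98.2 in WT microglia, 99.1 and 99.4 in 5XFAD total cells and 99.6 and 99.4 in WT total cells. It was thus among the top-ranked peaks of every list, with the 2 lowest ranks in 5XFAD microglia. Covered length at Hdac2 was 688, 1200, 793 and 827 bp in microglia (5XFAD 1 and 2, WT 1 and 2), against 1119, 574, 606 and 916 bp in total cells in the same order. The preparations overlapped, with means of 877 ± 223 bp in microglia, against 804 ± 261 bp in total cells (SD, n = 4 each; two-sided exact permutation p = 0.686). Per Mb of list coverage Hdac2 took 31.1 to 51.8 bp in microglia, against 62.9 to 117 bp in total cells, without overlap, and 9.53% of all genes were likewise lower in microglia on this scale.

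The start of Hdac2 is shown because it was marked in all 8 libraries, next to the listed start of Hdac4, the other gene with this property among the 11 listed starts of 7 of the genes. Both are RefSeq windows of GRCm38.p6, read 5′ to 3′ on the gene's strand, from 250 bases before to 50 after the start. The Hdac2 window is chr10:36974294-36974593 on the plus strand and the Hdac4 window is chr1:92180292-92180591 on the minus strand. Capitals mark the letters GGGCGG (the GC box) on either strand, read as CCGCCC where the box is on the other strand.
Hdac2: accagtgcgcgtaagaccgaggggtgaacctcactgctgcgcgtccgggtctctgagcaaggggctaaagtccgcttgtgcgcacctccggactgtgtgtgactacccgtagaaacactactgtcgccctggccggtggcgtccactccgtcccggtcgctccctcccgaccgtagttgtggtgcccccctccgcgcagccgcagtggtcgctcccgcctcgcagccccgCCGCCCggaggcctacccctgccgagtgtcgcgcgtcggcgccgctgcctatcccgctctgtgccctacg
Hdac4: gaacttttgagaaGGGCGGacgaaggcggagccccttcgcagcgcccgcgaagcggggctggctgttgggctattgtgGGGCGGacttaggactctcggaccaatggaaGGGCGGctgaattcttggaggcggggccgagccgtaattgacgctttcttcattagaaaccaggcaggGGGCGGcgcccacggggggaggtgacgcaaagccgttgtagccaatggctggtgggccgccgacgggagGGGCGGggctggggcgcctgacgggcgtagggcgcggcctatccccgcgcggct

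The Hdac2 window held 36 CpG dinucleotides, 69.7% G or C and 1 GC box, and the Hdac4 window 32 CpG dinucleotides, 68.0% G or C and 5 GC boxes. A GC box was found in 35.7% of all 32851 RefSeq promoter windows. Windows overlapped by a peak in all 8 libraries were 7.7% of all windows, with a median of 21 CpG dinucleotides and 60.7% G or C. Windows with no peak in any library were 65.4%, with a median of 4 CpG dinucleotides and 49.0% G or C. Both windows were thus above the median of the windows marked in all libraries.

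Hdac1, the close paralog of Hdac2 with which it shares complexes, lies at chr4:129516104-129542646. Its main region, over the upper annotated end at chr4:129541052-129543149, held peaks in all 8 libraries. The bases covered there, summed over peaks where a library held several, were 749 and 1664 bp in 5XFAD microglia, 549 and 1301 bp in WT microglia, 209 and 416 bp in 5XFAD total cells and 260 and 400 bp in WT total cells. The score percentiles of the best peak were 7.09, 36.9, 26.7 and 40.8 in microglia and 77.1, 68.5, 79.4 and 81.8 in total cells, in the same order of libraries. Every microglia library thus had more bases covered there than any total cell library, while its best peak ranked lower within its own list. The region was merged over libraries, and its peaks lay partly at different places. The peak of microglia WT 1 ended at 129541751, inside the gene, and that of total cells 5XFAD 1 began at 129542650, beyond its end. Both 5XFAD microglia libraries held 2 peaks in the region, the narrowest of them 327 bp wide. Covered length over the whole gene averaged 1279.8 ± 583 bp in microglia, against 442 ± 47.6 bp in total cells (SD, n = 4 each), without overlap (two-sided exact permutation p = 0.0286, the smallest that 4 against 4 allows). When only the higher-scoring 50% of each list was kept, Hdac1 had no peak in microglia, and the direction turned round. A further region 888 bp beyond the lower end, close to the gene Marcksl1, was found in microglia 5XFAD 2, total cells 5XFAD 1 and total cells WT 1. The processed pseudogene Hdac1-ps, on chromosome 17, had no peak in any library.

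Hdac3, the catalytic subunit of the NCoR and SMRT complexes, at chr18:37936971-37955015, had peaks in all 4 total cell libraries and in 1 microglia library. Covered length was 0 and 1032 bp in 5XFAD microglia, 0 bp in both WT microglia libraries, 204 and 235 bp in 5XFAD total cells and 233 and 518 bp in WT total cells. The single microglial peak was longer than any total cell value, so the preparations overlapped (exact permutation p = 1.0). Without microglia 5XFAD 2, no microglia library had a peak and the 4 total cell libraries did. Leaving out the only microglia library with a peak fixes this outcome, so it is no test of a difference. With no flank, covered length was 0 and 235 bp in 5XFAD total cells and 0 and 291 bp in WT total cells. The most frequent region, chr18:37935470-37935702, lay 1269 bp beyond the lower end and within 2 kb of Diaph1, in total cells 5XFAD 1, WT 1 and WT 2, with percentiles of 94.2, 98.5 and 85.6.

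Hdac8, the X-linked class I enzyme that acts outside these complexes and deacetylates cohesin, lies at chrX:102284638-102505381. It had at most 1 peak per library over its 220.7 kb. Among the 990 genes of at least 200 kb, its 0.445 peaks per 100 kb were above the median in microglia 5XFAD 1, 5XFAD 2 and WT 2 (0.203, 0.357 and 0.362). In total cells 5XFAD 1 the same density was below the median of 0.666, and the remaining libraries held no peak. The start of Hdac8 was covered by 1054 bp in microglia 5XFAD 2 and 458 bp in microglia WT 2, the 2 longest lists of the series, and in no other library. Microglia 5XFAD 1 had a body peak of 384 bp and total cells 5XFAD 1 one of 243 bp, 23515 and 23998 bp downstream of the start. Covered length averaged 474 ± 436 bp in microglia, against 60.8 ± 122 bp in total cells (SD, n = 4 each), and the groups overlapped (exact permutation p = 0.143). Without microglia WT 1, which had no peak, they did not overlap. Since that library alone made the overlap, leaving it out fixes this outcome and is no test of a difference.

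**Figure D2:**
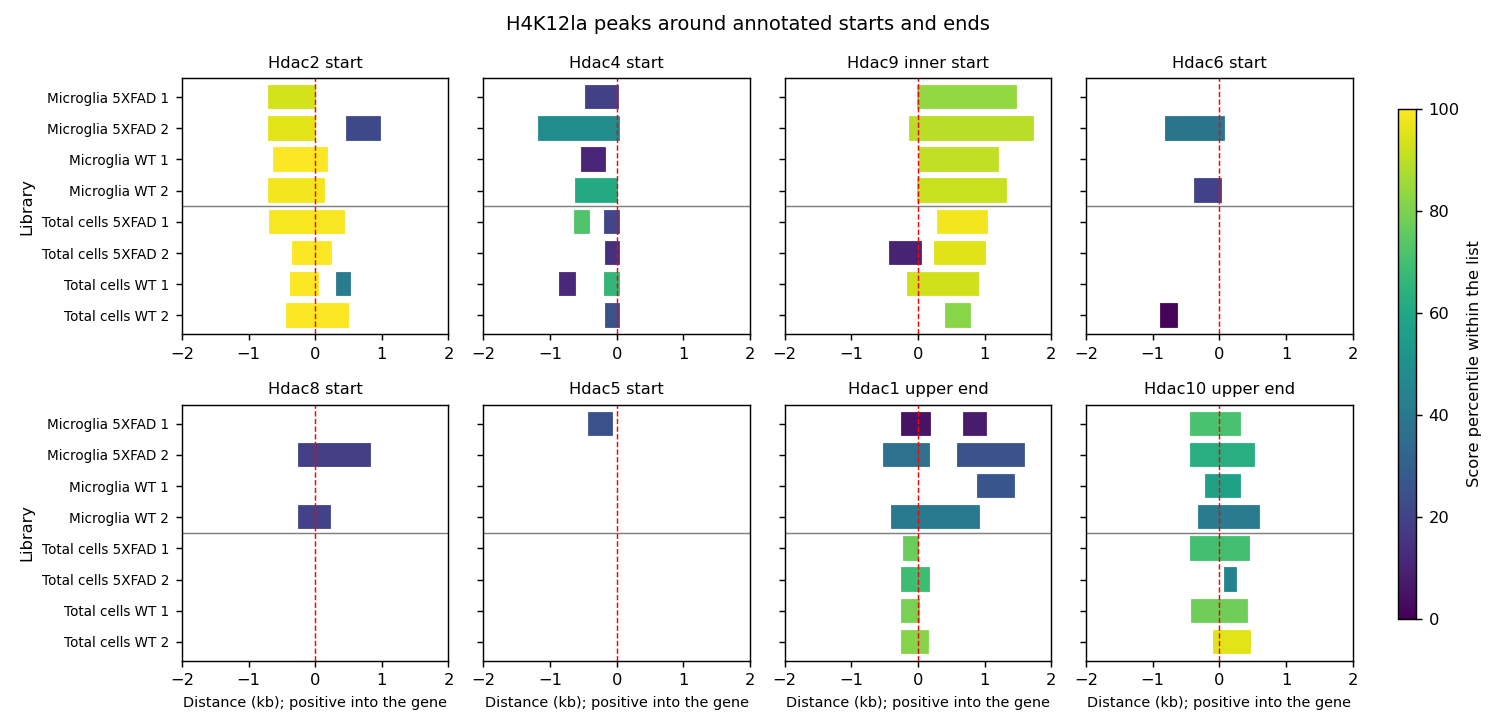
Peaks around the starts or upper annotated ends of deacetylase genes: the horizontal axis is the distance in kb, positive into the gene, each row is a library, microglia above total cells and 5XFAD above WT, and the colour of a bar is the score percentile of its peak. Bars lie at or close to the start of Hdac2 and the upper ends of Hdac1 and Hdac10 in all 8 rows, with the total cell bars of Hdac1 209 to 416 bp wide.

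Among the class IIa genes, Hdac9 carried most of the mark. Hdac9, which occurs as several isoforms, one of them lacking the catalytic domain, lies at chr12:34047580-34917095 on the minus strand. RefSeq lists 2 starts, the outer one at 34917095 and an inner one at 34528889, 388.2 kb downstream. Both windows are shown because the mark lay at the inner start and not at the outer one. The outer window is chr12:34917046-34917345 and the inner window chr12:34528840-34529139, both on the minus strand of GRCm38.p6 and read 5′ to 3′. Neither held a GC box, the motif that capitals mark above.
Hdac9 outer start: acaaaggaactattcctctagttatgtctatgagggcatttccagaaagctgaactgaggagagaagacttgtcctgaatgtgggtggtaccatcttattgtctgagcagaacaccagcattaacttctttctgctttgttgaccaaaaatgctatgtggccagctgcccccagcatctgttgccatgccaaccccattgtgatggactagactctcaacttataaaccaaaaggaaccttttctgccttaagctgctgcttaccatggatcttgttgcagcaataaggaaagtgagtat
Hdac9 inner start: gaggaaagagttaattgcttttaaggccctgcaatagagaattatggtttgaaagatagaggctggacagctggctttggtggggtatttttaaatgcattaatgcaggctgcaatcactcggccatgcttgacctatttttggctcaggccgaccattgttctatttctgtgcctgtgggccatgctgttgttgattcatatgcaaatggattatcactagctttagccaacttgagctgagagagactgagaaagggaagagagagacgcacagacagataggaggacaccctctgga

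The outer window held 0 CpG dinucleotides and 44.0% G or C, and no peak came within 10 kb of the outer start in any library, the nearest being 10318 bp away. The inner window held 3 CpG dinucleotides and 45.3% G or C, and a peak overlapped it in 6 libraries, all 4 of microglia and 2 of total cells. The region over the inner start, chr12:34527166-34529305, was present in all 8 libraries, with percentiles of 83.9, 89.5, 90.3 and 91.4 in microglia (5XFAD 1 and 2, WT 1 and 2) and 98.2, 95.3, 92.7 and 82.2 in total cells in the same order. It was covered over 1175 to 1848 bp in microglia, against 354 to 1218 bp in total cells, where the 1218 bp of 5XFAD 2 were the sum of 2 peaks.

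The 51 regions of Hdac9 lay 10.32 to 580.0 kb downstream of the outer start, and the last 289.5 kb before the 3′ end held none. Of these regions, 28 were found in both preparations, 12 in microglia alone and 11 in total cells alone, counting presence in any library. In all 8 libraries there were 6 regions, and 15 were in at least 6 libraries. Of the 89 regions of the 10 genes, 10 were in all 8 libraries, or 11.2%, against 7.19% of all regions.

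A region near the top of every list, chr12:34712710-34715068, lay 202.027 kb downstream of the outer start. The percentiles of its best peaks were 99.6, 99.5, 99.3 and 99.6 in microglia and 98.1, 97.6, 95.8 and 98.1 in total cells, and the bases covered in it 2354, 2329, 1770 and 2118 bp in microglia, against 1761, 1512, 1396 and 1214 bp in total cells. Every microglia library had more of it covered than any total cell library, by a narrow margin between microglia WT 1 and total cells 5XFAD 1, and total cells 5XFAD 2 and WT 1 each held 2 peaks there. The region chr12:34484933-34486952 ranked at 99.9, 99.9, 99.1 and 99.7 in microglia, 97.3 and 97.3 in 5XFAD total cells and 62.6 and 77.3 in WT total cells. It was covered over 1464 and 837 bp in 5XFAD total cells and 353 and 177 bp in WT total cells, so both measures were lower in WT total cells. The 1464 bp were made of a peak of 859 bp, which carried the printed percentile, and one of 605 bp at percentile 7.75. Another region, chr12:34472167-34473687, stayed between percentiles 95.4 and 99.8 in all 8 libraries.

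**Figure D3:**
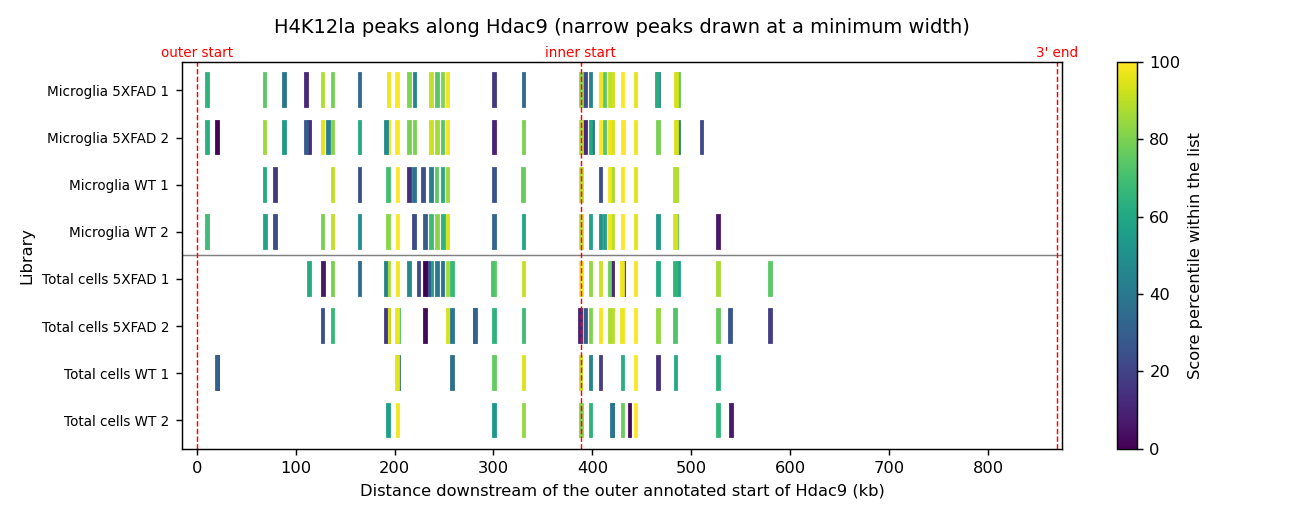
Peaks along Hdac9, with distance downstream of the outer listed start in kb on the horizontal axis and a row per library, microglia above total cells and 5XFAD above WT. Peaks fill the stretch from 10.32 to 580.0 kb, none lie in the last 289.5 kb, and the 2 WT total cell rows hold the fewest.

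Hdac9 was also dense in peaks for its length. Among the 227 genes of at least 500 kb, a class set after its length was known, Hdac9 had 3.43, 4.01, 2.63 and 3.21 peaks per 100 kb in microglia (5XFAD 1 and 2, WT 1 and 2) and 3.78, 3.21, 1.72 and 1.49 in total cells in the same order. The medians of these genes were 0 to 0.305 peaks per 100 kb across the 8 libraries. Hdac9 ranked 10th, 14th, 10th and 14th in microglia, 10th and 6th in 5XFAD total cells and 31st and 27th in WT total cells.

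Hdac4, which is expressed in brain and represses MEF2-driven transcription, lies at chr1:91928779-92195702 with its listed start 15.36 kb inside the upper end. The region over that start, chr1:92180301-92181505, was present in all 8 libraries, with its best peak at percentiles of 19.4, 48.3, 10.2 and 60.9 in microglia and 72.6, 14.02, 66.4 and 24.5 in total cells. Its rank thus varied widely and without an order between the preparations. Inside the gene, chr1:92051269-92053249 was found in all 4 microglia libraries, 1341 to 1896 bp wide at percentiles of 67.4 to 84.3, and not in total cells. The same held for chr1:91954541-91955739, at percentiles of 45.5 to 65.9. Among the 990 genes of at least 200 kb, Hdac4 ranked 162nd to 186th by peaks per 100 kb in microglia and 184th to 348th in total cells.

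Hdac5, another MEF2 repressor, lies at chr11:102195747-102230172. The region chr11:102221618-102222191, 7981 bp downstream of the start, was present in all 4 microglia libraries with widths of 574, 451, 397 and 355 bp. Its percentiles were 32.3 and 40.9 in 5XFAD microglia and 16.7 and 1.73 in WT microglia, so it was a weak peak for its lists, weakest in WT 2. A broader region, chr11:102208194-102209162, was present in both 5XFAD microglia libraries, 634 and 969 bp wide at percentiles of 49.9 and 68.7, and in no other library. Regions present in all 4 microglia libraries and absent from total cells numbered 5 of the 89, which were 2 at Hdac4, 1 at Hdac5 and 2 at Hdac9, or 5.62% against 4.51% of all regions. None of the 89 had the reverse pattern, found for 1.34% of all regions.

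The start of Hdac5 is shown because it is the only one of the 11 windows with the letters CTATTTTTA, a MEF2-type motif searched on both strands, and because a peak overlapped it in 1 library, microglia 5XFAD 1. The motif starts at base 231 of the window and was found in 0.493% of all windows. The window is chr11:102230123-102230422 on the minus strand, and capitals mark this motif and the GC box. The first of the 4 listed starts of Hdac7, chr15:97831446-97831745 on the minus strand, is shown beside it as a GC-rich start with no peak in any library.
Hdac5: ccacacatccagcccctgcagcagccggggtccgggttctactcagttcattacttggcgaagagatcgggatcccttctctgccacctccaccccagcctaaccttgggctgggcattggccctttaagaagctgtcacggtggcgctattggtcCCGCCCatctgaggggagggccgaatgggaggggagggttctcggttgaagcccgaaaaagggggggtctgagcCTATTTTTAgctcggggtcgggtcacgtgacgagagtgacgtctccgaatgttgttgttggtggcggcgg
Hdac7: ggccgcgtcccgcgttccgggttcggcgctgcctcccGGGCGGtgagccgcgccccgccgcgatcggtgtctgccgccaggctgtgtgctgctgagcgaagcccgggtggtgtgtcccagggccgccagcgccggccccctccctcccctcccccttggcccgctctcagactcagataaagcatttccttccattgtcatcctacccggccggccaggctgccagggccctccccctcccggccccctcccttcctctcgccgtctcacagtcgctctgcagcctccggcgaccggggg

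The Hdac5 window held 18 CpG dinucleotides and 60.7% G or C, and the Hdac7 window 31 CpG dinucleotides and 73.7% G or C, each with 1 GC box. The letters are a description of the windows and say nothing of which factors bind there.

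Hdac7, known for its roles in endothelium and lymphocytes, lies at chr15:97792661-97844502 and had no peak over any of its 4 listed starts. Its peak region, chr15:97824975-97825801, lay 5694 bp from the nearest of them. It was present in microglia 5XFAD 2 and WT 2, at percentiles of 31.3 and 8.31, and in 3 total cell libraries at percentiles of 21.0 to 41.5, while total cells WT 1 had another body peak instead. Covered length was 0 and 827 bp in 5XFAD microglia, 0 and 453 bp in WT microglia, 275 and 239 bp in 5XFAD total cells and 347 and 354 bp in WT total cells.

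Among the class IIb genes, Hdac10, a polyamine deacetylase at chr15:89123303-89128700, had 1 peak in every library. All lay in the region over the upper annotated end, chr15:89128112-89129120, within 2 kb of Mapk12, so the peak cannot be assigned to either gene. Widths were 726, 944, 512 and 895 bp in microglia, against 858, 179, 833 and 533 bp in total cells, and percentiles 71.0, 62.6, 56.7 and 41.7 in microglia and 69.9, 44.6, 77.8 and 95.6 in total cells. The preparations overlapped in both. Hdac6, the X-linked tubulin deacetylase at chrX:7930116-7948047, had 1 region over its start, chrX:7947817-7948768. It was found in microglia 5XFAD 2 (872 bp, percentile 38.4), microglia WT 2 (387 bp, percentile 19.8) and total cells WT 2 (251 bp, percentile 1.01). The peak of total cells WT 2 lay 629 bp from the start and did not cover it. The window at the listed start of Hdac6 held 20 CpG dinucleotides, 62.0% G or C and 5 GC boxes.

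The preparations were then compared over the covered length of each gene. Hdac1, Hdac4, Hdac5 and Hdac9 had more covered bases in every microglia library than in any total cell library, 4 of 10 genes, against 18.5% of all genes. None of the 10 was lower in microglia without overlap, against 1.64% of all genes. Hdac9 was covered over 26678 and 34668 bp in 5XFAD microglia, 17004 and 23767 bp in WT microglia, 16376 and 12072 bp in 5XFAD total cells and 6289 and 4852 bp in WT total cells. Microglia averaged 25529 ± 7317 bp and total cells 9897 ± 5328 bp (SD, n = 4 each; two-sided exact permutation p = 0.0286), the closest pair being microglia WT 1 and total cells 5XFAD 1.

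Hdac4 was covered over 4773 and 7779 bp in 5XFAD microglia, 3314 and 5288 bp in WT microglia, 1736 and 880 bp in 5XFAD total cells and 2434 and 619 bp in WT total cells. Hdac5 was covered over 1548 and 1885 bp in 5XFAD microglia, 397 and 355 bp in WT microglia and 0 bp in all 4 total cell libraries. Both gave an exact permutation p of 0.0286. The Benjamini-Hochberg adjusted p over all genes was 0.142 for each of the 4 genes, and 0.0% of all genes passed an adjusted p of 0.05, while 20.2% had an unadjusted p under it.

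Since microglial peaks were wider over whole lists, the genes were also compared by other measures. By number of peaks, Hdac5 alone was higher in microglia without overlap (3, 3, 1 and 1 in microglia and 0 in total cells), against 4.3% of all genes, with an adjusted p of 0.435, and none was lower, against 2.26%. Hdac9 held 29.0 ± 4.97 peaks in microglia and 22.3 ± 9.78 in total cells, which overlapped (SD, n = 4 each; exact permutation p = 0.286), and Hdac4 held 7 ± 1.63 in microglia and 5 ± 1.83 in total cells (SD, n = 4 each; exact permutation p = 0.2). As a share of the list's covered length, Hdac5 alone was higher in microglia without overlap, against 6.96% of all genes. When each list was cut to its 22300 best-scoring peaks, Hdac4 and Hdac9 were higher in microglia without overlap, against 17.5% of all genes. Among genes with a peak in all 8 libraries, which compares covered length apart from presence, 3 of 5 were higher in microglia, Hdac1, Hdac4 and Hdac9, against 38.3% of such genes.

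**Figure D4:**
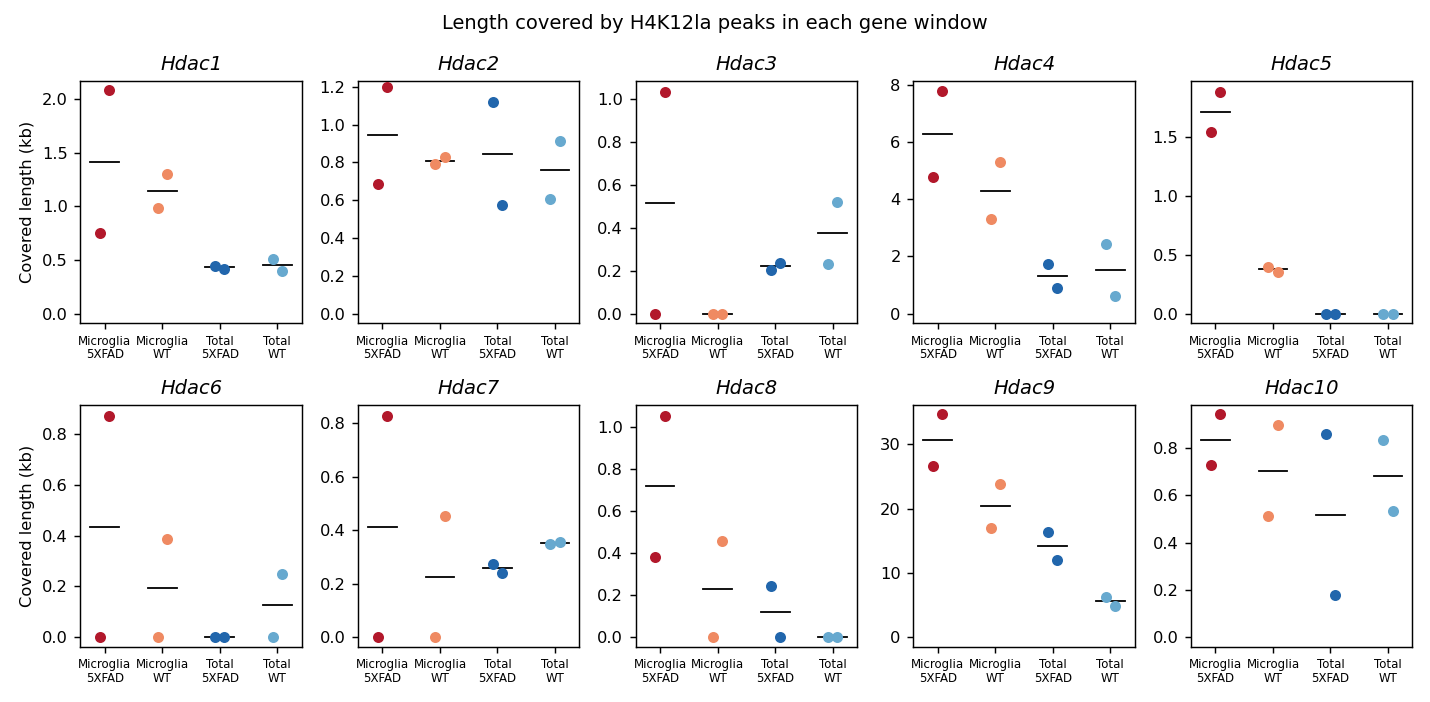
Covered length in kb of each deacetylase gene plus 2 kb in the 8 libraries, with a panel per gene and a linear axis. The groups are drawn in separate colours, microglia left of total cells and 5XFAD left of WT, and a line marks each group mean. The microglia points of Hdac1, Hdac4, Hdac5 and Hdac9 all lie above the total cell points, while the points of the other 6 genes overlap.

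The genotypes were compared within each preparation, where 2 libraries against 2 cannot reach p < 0.05 (the smallest exact p is 0.333), and jointly over both preparations, where the smallest is 0.0556. Hdac9 was the only one of the 10 with more covered bases in both 5XFAD libraries than in both WT libraries in each preparation, against 5.41% of all genes. None of the 10 was lower in both, against 0.219%. The 5XFAD mean exceeded the WT mean by 10287.5 bp in microglia and by 8653.5 bp in total cells, and the joint exact permutation p was 0.0556, with an adjusted p of 0.987.

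In microglia alone, Hdac5 and Hdac9 were higher in 5XFAD without overlap, 2 of 10, against 19.1% of all genes, and none was lower, against 1.78%. In total cells alone, Hdac9 was higher, against 16.6% of all genes, and Hdac7 was lower, against 5.64%. In microglia, a share of 2 in 10 is close to that background. These single-preparation counts depended on the libraries used. With microglia 5XFAD 1 left out, every gene from Hdac1 to Hdac10 was higher in 5XFAD microglia, where only 5XFAD 2, the longest list, remained. With microglia 5XFAD 2 left out, Hdac1 and Hdac2 were lower, Hdac5 and Hdac9 were higher and the others overlapped. In total cells, Hdac1 and Hdac4 were higher in 5XFAD without WT 1 and lower without WT 2. Hdac9 stayed higher in 5XFAD in both preparations, and Hdac7 stayed lower in total cells. The share of all genes called with a library left out was not computed. With equal numbers of peaks, Hdac1 and Hdac2 were lower in 5XFAD microglia, where the share of all genes was not computed either. As a share of the list, 3 of 10 were lower in 5XFAD total cells, Hdac1, Hdac7 and Hdac10, against 12% of all genes. Hdac5 averaged 1716.5 bp in 5XFAD microglia and 376 bp in WT microglia, and Hdac7 averaged 257 bp in 5XFAD total cells and 350.5 bp in WT total cells.

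The Hdac9 difference in total cells was also one of regions. Of its 51 regions, 30 and 35 had a peak in 5XFAD microglia, 22 and 27 in WT microglia, 31 and 25 in 5XFAD total cells and 14 and 12 in WT total cells. There were 7 regions present in both 5XFAD and neither WT total cell library, or 13.7% of its regions against 5.47% of all regions, and none with the opposite pattern, held by 3.3% of all regions. No other member had such a region in total cells. Of the 7, 4 were present in at least 3 microglia libraries and 3 in all 4. In microglia, both 5XFAD and neither WT library held 6 of the 89 regions, 4 of them at Hdac9 and 1 each at Hdac4 and Hdac5, against 6.11% of all regions, and the opposite held for 1, at Hdac9, against 1.23%.

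List coverage was on average higher in 5XFAD but overlapped between genotypes in both preparations. Lists covered 22.1 and 36.3 Mb in 5XFAD microglia, 15.3 and 26.1 Mb in WT microglia, 14.8 and 8.63 Mb in 5XFAD total cells and 9.63 and 7.8 Mb in WT total cells. Per Mb of list, Hdac9 took 1206 and 955 bp in 5XFAD microglia and 1110 and 909 bp in WT microglia, which overlapped, and 1108 and 1399 bp in 5XFAD total cells and 653 and 622 bp in WT total cells, which did not, against 11.1% of all genes higher without overlap in total cells. With the lists cut to equal numbers of peaks, Hdac9 was still higher in 5XFAD without overlap in both preparations, against 4.77% of all genes, and none of the 10 was lower in both, against 0.557%. Per Mb of list, Hdac10 was lower in 5XFAD without overlap in both, against 2.12% of all genes.

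Several marker sums differed by genotype without overlap. In total cells, the 18 microglial markers together were covered over 9277 and 4250 bp in 5XFAD and 1889 and 3273 bp in WT, with 11 and 8 of them holding a peak in 5XFAD and 3 and 8 in WT. The gap between these sums rested on P2ry12, with 2767 and 2034 bp in 5XFAD and 0 and 577 bp in WT. Singly, 4 of the 18 were higher in 5XFAD without overlap (16.6% of all genes) and 1 was lower (5.64%). The 5 oligodendrocyte markers were covered over 5214 and 3120 bp in 5XFAD and 946 and 319 bp in WT, and the 6 astrocyte markers over 4823 and 2577 bp in 5XFAD and 2483 and 1801 bp in WT. The oligodendrocyte gap rested on Mbp, with 4558 and 3120 bp in 5XFAD and 946 and 208 bp in WT. The astrocyte gap rested on Slc1a3, with 3387 and 1408 bp in 5XFAD and 1208 and 245 bp in WT. The 8 neuronal markers overlapped, with 3238 and 1191 bp in 5XFAD and 3570 and 2890 bp in WT. In microglia, oligodendrocyte markers also differed without overlap, with 11746 and 16569 bp in 5XFAD and 5957 and 7796 bp in WT, while microglial markers overlapped, with 41830 and 72765 bp in 5XFAD and 32376 and 59453 bp in WT. The oligodendrocyte gap in microglia again rested on Mbp, with 11147 and 15000 bp in 5XFAD and 5475 and 6770 bp in WT. The part of these markers in the Hdac9 result was not tested.

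**Figure D5:**
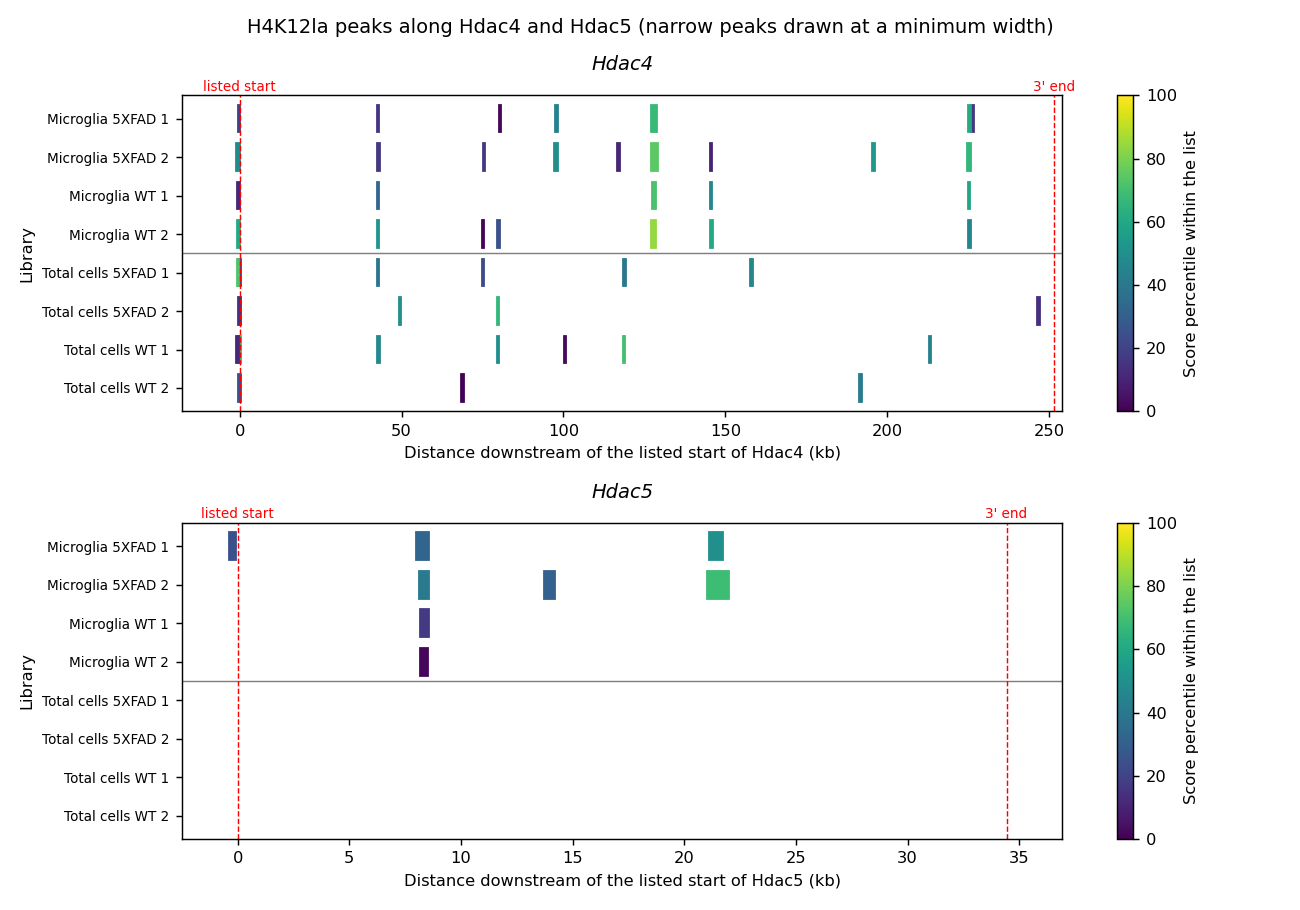
Peaks along Hdac4 and Hdac5, with distance downstream of the listed start in kb on the horizontal axis and a row per library, microglia above total cells and 5XFAD above WT. The Hdac5 panel is empty in the 4 total cell rows, and 3 of its 4 regions appear only in 5XFAD microglia rows.

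Partners of these enzymes were counted as a list of 40 genes. They included Hdac11, the only class IV enzyme, subunits of the SIN3, NuRD, CoREST and NCoR/SMRT complexes and the MEF2 factors. Mier1, Mier2, Mier3 and Dnttip1, of other class I complexes, completed the list. A peak was present in all 8 libraries at 22 of the 40 (26.7% of all genes), and none lacked peaks in all libraries (34.0% of all genes). Covered length was higher in microglia without overlap for 13 (18.5% of all genes) and lower for 0 (1.64%), with a median difference of 589 bp over the list, 333 bp over Hdac1 to Hdac10 and 29.5 bp over all genes. As a share of the list, 6 were higher (6.96% of all genes) and 4 lower (9.53%) in microglia, the lower count being near the background. Hdac11 was covered over 2305 and 2600 bp in 5XFAD microglia, 2043 and 2144 bp in WT microglia, 1184 and 831 bp in 5XFAD total cells and 213 and 608 bp in WT total cells. In covered bases each of its 4 groups stood apart. Its number of peaks was 2 in every library except total cells WT 1, which had 1. Mef2d, a MEF2 factor bound by class IIa enzymes, was covered over 3003 and 5321 bp in 5XFAD microglia, 2634 and 2999 bp in WT microglia, 882 and 631 bp in 5XFAD total cells and 0 bp in both WT total cell libraries. These 2 genes were among 9 of the 40 that were higher in 5XFAD without overlap in both preparations (against 5.41% of all genes), the others being Ing2, Rbbp4, Chd3, Chd4, Mbd2, Mbd3 and Kdm1a, and 0 were lower. The genotype comparison of the partners is given in covered bases only and not per Mb of list, while the lists differed in coverage.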

How the data were processed

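H4K12la was measured by CUT&Tag in 8 mouse brain libraries. The tools named by the submitters' processing notes are Bowtie2, deepTools and fastp 0.19.6, and the build is GRCm38 (mm10). Which program called the peaks, at what threshold and against what control, is not given in the sources used here. Each library has its own list, without header, of positions and a score. This score, deposited by the authors in whole numbers, has no stated unit and was at least 20 in every list. It was used only as a percentile or filter within its own list. Printed positions count from 1. Depth is unknown, as reads were not listed. At most 193 intervals were identical between any pair of lists.

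Groups and replicate numbers came from the sample titles. Genes, and promoter windows with strand, came from RefSeq tables of GRCm38.p6, and the windows matched 7 of the 10 genes. Presence, number of peaks and covered bases were computed for 21887 protein-coding genes (gene span plus 2 kb, overlap of at least 1 base) with Python 3.11.15, numpy 2.4.6 and pandas 2.3.3. Preparations were compared by an exact two-sided permutation test of the difference in means over 70 assignments, with Benjamini-Hochberg adjustment over all genes, and genotypes within preparations over 36 arrangements. The overlap counting and the test between preparations were checked on simulated data, and the genotype test was not. Regions were merged over all 8 lists. All 10 genes were named, and from the 40 partners those with a pattern set by preparation, or by genotype in both preparations. The genes and lists were chosen with earlier results of these data known. The alternatives were equal list lengths, score filters, other windows and overlaps, a fixed peak width of 300 bp, covered length as a share of the list, each library left out in turn and a replicate block.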

Additional observations from a re-analysis of the deposited data

Results flagged for a closer look

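Within each preparation, the covered length of each gene was checked for a library far from the other 3, in 19 groups of 4 libraries with any spread. In 4 of them the gap to the nearest library exceeded Dixon's 95% limit for the range. In 3 of the 4 the other libraries were all at 0, so any value above 0 exceeds the limit there and the usual rate of about 1 in 20 by chance does not apply. Hdac3 had 1032 bp in microglia 5XFAD 2 and 0 bp in the other 3 microglia libraries. Hdac3 had 518 bp in total cells WT 2, against 204 to 235 bp in the other 3 total cell libraries. Hdac6 had 251 bp in total cells WT 2 and 0 bp in the other 3. Hdac8 had 243 bp in total cells 5XFAD 1 and 0 bp in the other 3.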

How the results depend on the processing

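Of the counts over the 10 genes, 5 with a peak in all 8 libraries became 2 with a score of at least 50 and 2 with the higher-scoring 50% of each list. The 1 gene marked in microglia alone, Hdac5, became 0 with equal numbers of peaks, with scores of at least 50 and with windows at starts. With the higher-scoring 50% Hdac5 lost the pattern too, and the count stayed at 1 through Hdac1, then marked in total cells alone. The 4 genes with more covered bases in microglia became 2 with equal numbers of peaks, 2 with scores of at least 50, 2 with the higher-scoring 50%, and 1 each with windows at starts (for Hdac1, Hdac3 and Hdac10, which have no listed start, at both annotated ends), peaks of 300 bp and covered length as a share of the list. Genes higher in total cells, 0 in the report, became 1 with the higher-scoring 50% (Hdac1) and 1 as a share of the list (Hdac2). The 1 gene higher in 5XFAD in both preparations, Hdac9, became 0 with windows at starts and 0 as a share of the list, where 1 gene, Hdac10, was lower in 5XFAD in both. The difference of Hdac1, microglia minus total cells, was -321 bp with the higher-scoring 50% (exact permutation p = 0.0286). The causes were not tested.

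With each library left out in turn, the count marked in 1 preparation alone was 1 to 2, genes in all 8 libraries stayed at 5, genes higher in microglia were 4 to 5, genes higher in total cells 0 to 1, and genes higher or lower in 5XFAD in both preparations 1 and 0. Hdac3 entered without microglia 5XFAD 2 and Hdac8 without microglia WT 1. With a total cell library left out, the exact permutation p of Hdac1, Hdac4 and Hdac9 was 0.0571 and that of Hdac5 0.0857, in a smaller design, and Hdac9 also had 0.0571 without microglia 5XFAD 2, with no overlap in each case. The replicate block, which compares libraries of the same number within genotype, left the counts at 4, 0, 1 and 0 and allows no p under 0.125. The labels do not say that numbers mark a shared animal or day.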
